A study of Mus musculus with 2 samples.

Results

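C1q macrophages of mouse MC38 tumors are described here, as non-cycling cells, in 1 untreated and 1 MSA-2 library. The cells were chosen by measured values, the shares and numbers of unique molecular identifiers (UMIs, counted RNA molecules) of named genes in each barcode. A member passed a filter of 500 or more genes with 20% or fewer mitochondrial UMIs, and had at least 0.1% of its UMIs from C1qa, C1qb and C1qc together. It also had at most 1 UMI of Folr2 and Lyve1, at most 2 UMIs of the cycling genes Mki67, Top2a and Birc5, under 1% from the neutrophil genes S100a8 and S100a9, and 0 UMIs of the T cell genes Cd3d, Cd3e and Cd3g. By the whole rule, of which these are the limits described here, 3932 of the 28002 cells that passed the filter on genes and mitochondrial UMIs were members, 3061 of 14039 in the untreated and 871 of 13963 in the MSA-2 library. All genes named in the rule are given below as a description of the choice and support no result.

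MC38 is a mouse colon carcinoma line, and MSA-2 is a small-molecule agonist of STING, the adaptor through which cytosolic DNA turns on type I interferon genes. Tumors were injected every 3 days, 3 times, and those of 3 mice were pooled for each library, so a condition is 1 library and differences among mice cannot be seen. The control is labelled untreated, while the series record describes a vehicle of saline with 10% DMSO; the other group received MSA-2 into the tumor. The methods describe the MC38 model in C57BL/6 mice and mention a sort without naming the cells it kept. The untreated library held 14386 deposited barcodes with 198135335 UMIs, and the MSA-2 library held 14617 barcodes with 204387165 UMIs. The question asked of the members was how their number and their RNA differed between the libraries. Ratios are log2 of MSA-2 over untreated, levels (CPM) are the members' summed UMIs of a gene scaled to the same total per library, and ranges after a value are 95% intervals that cover counting error only. They are exact, except that those of differences between kinds of cells are normal approximations. The interval of a list's median is that of its middle gene or genes, taken before 1 CPM is added, and does not describe the spread of the list.

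Macrophages that make C1q, the recognition part of the classical complement pathway, are found in many tissues and tumors, where they are known for taking up dying cells and for handling lipid, with Apoe among their most abundant transcripts. Interferon made through STING or through receptors for nucleic acids acts on such cells through its receptor and turns on antiviral genes. Macrophages also present antigen on MHC class II molecules, whose genes depend on the coactivator Ciita.

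The members carried the markers of their name. Apoe, the lipoprotein that carries cholesterol out of cells, measured 21113 CPM in the untreated members and 14016 CPM in those of the MSA-2 library, against 386 and 101.9 CPM in deep non-myeloid cells. These reference cells had at least 8000 UMIs and under 0.05% of them from Tyrobp, Fcer1g, Csf1r, Cd68, Lyz2 and Ptprc, and they numbered 5913 (42.1% of the kept cells) and 6960 (49.8%), although the methods call the retained cells immune cells. Ms4a7, a membrane protein of macrophages, measured 742 and 670.1 CPM in the members against 10.7 and 3.70 CPM. The other 3 markers are the genes of the rule, with 5936 and 4373 CPM for C1qa, 4840 and 3498 CPM for C1qb and 3128 and 2108 CPM for C1qc. General macrophage genes were present in both libraries and moved in both directions. Csf1r, the receptor for the growth factor CSF1, measured 224 and 162 CPM, Cd68, a lysosomal protein, 322 and 340.4 CPM, and Fcgr1, a high-affinity Fc receptor, 234 and 365 CPM.

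The MSA-2 members were shallower and lay nearer to the C1q limit. Their median depth was 3846 UMIs (quartiles 2274.5 and 5274.5) against 5103 UMIs (3372 and 6568) in the untreated library, with medians of 1603 and 1979 genes and of 1.76% and 2.11% mitochondrial UMIs. The median share of C1q UMIs was 1.43% in untreated and 0.673% in MSA-2 members. The nearest untreated member lay at the limit of 0.1% itself and the nearest MSA-2 member at 0.101%, and the nearest cells outside had 0.09997% and 0.0994%. Within 0.01 percentage points of that limit lay 51 members and 48 other cells of the untreated library, and 25 members and 30 other cells of the MSA-2 library. For S100a8 and S100a9 the nearest shares were 0.932% and 0.936% inside and 1.06% and 1.07% outside. At the limits set in UMIs, 72 untreated and 75 MSA-2 members had 1 UMI of Folr2 or Lyve1, while 16 and 38 cells had 2 and were left out. For the cycling genes, 282 and 80 members had 2 UMIs, while 104 and 19 cells had 3 and were left out, and 147 and 7 cells were left out with 1 UMI of a Cd3 gene. Few members lacked myeloid RNA, since 147 untreated (4.80%) and 44 MSA-2 members (5.05%) had under 0.1% of their UMIs from the 6 myeloid genes above. The libraries shared 53 barcodes, none of them between a member and a member; 5 untreated and 2 MSA-2 members had a barcode that also occurs in the other library. Scrublet called 171 untreated (5.59%) and 35 MSA-2 members (4.02%) as doublets.

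C1q macrophages held a smaller part of the MSA-2 library. They made up 21.8% (21.1% to 22.5%) of the kept untreated cells and 6.24% (5.84% to 6.65%) of the kept MSA-2 cells, a log2 ratio of -1.81 (-1.92 to -1.70). The denominator set the size of this difference. Among the 4607 untreated and 1595 MSA-2 cells at or above the C1q limit, members made up 66.4% and 54.6%, a log2 ratio of -0.28 (-0.39 to -0.17), and per deep non-myeloid cell it was -2.05 (-2.16 to -1.94). Cells that missed the rule by 1 limit alone differed in either direction. Those left out for the cycling genes numbered 493 and 88, a log2 ratio of their shares of -2.48 (-2.82 to -2.15), while those left out for Folr2 and Lyve1, here Folr2 Lyve1 macrophages, numbered 46 and 110, with 1.27 (0.76 to 1.80). A C1q cell with T cell genes fell outside in 307 untreated cases and 7 MSA-2 cases. The limit on S100a8 and S100a9 alone left out 4 untreated and 68 MSA-2 cells.

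More genes were at least 2-fold higher than lower in the MSA-2 members. Genes of the rule were left out, and 3472 others reached 50 CPM in 1 of the libraries and 50 UMIs in total. Of these, 309 (8.90%) were at least 2-fold higher and 102 (2.94%) at least 2-fold lower, and the median log2 ratio was -0.12. Without a CPM minimum and with at least 10 UMIs, the counts were 1293 and 1374. For lists of genes, 1 CPM was added to each value, and genes needed at least 10 UMIs in both libraries together. Over all 14377 such genes, 877 (6.10%) were at least 2-fold higher and 587 (4.08%) at least 2-fold lower, so the balance depended on how rare genes were treated. By sign alone 5749 were higher and 8628 lower, and their median of -0.13 is the value against which each list below is read.

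Interferon-stimulated genes were higher throughout. Of 35 listed genes 33 are in the files (Mx1 and Mx2 are not), all 33 were higher in the MSA-2 members, 26 of them at least 2-fold against 6.10% of all genes, and the list's median was 1.46 (1.36 to 1.57). Ifi205, a DNA-binding protein of the interferon-inducible p200 family, went from 46.7 to 409.5 CPM, a log2 ratio of 3.13 (3.01 to 3.26). Cmpk2, a mitochondrial nucleotide kinase, went from 46.7 to 408 CPM (3.13, 3.00 to 3.26). Ifit1, which binds foreign RNA at its 5′ end, was the most abundant of the 4 genes with the largest ratios and went from 271 to 1767 CPM (2.71, 2.65 to 2.76). Ifit3b went from 54.7 to 358 CPM (2.71, 2.59 to 2.84); it and Ifit3 are close copies, so the division of reads between them is uncertain. All 33 were higher in cells with little myeloid RNA as well, and Ifit1 measured 87.1 and 444 CPM in deep non-myeloid cells.

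The motif GAAANNGAA, or TTCNNTTTC on the other strand, is the core of the interferon-stimulated response element. In the RefSeq promoter windows on GRCm38.p6, the build that the labels name as mm10, 2342 of 32851 promoters (7.13%) hold it on either strand in the 250 bases before the start. Only 25 of the 35 listed symbols matched a promoter in that table (71.4%), which is under the 80% needed here, so no share is given for the list. Shown for their rank are the 150 bases before the start of the 4 listed genes with the largest ratios among those that matched a promoter with the motif in that stretch, so they were picked for holding it, 5′ to 3′ on the strand of the gene, with matches in capitals.
Ifi205, chr1:174031756-174031905, minus strand: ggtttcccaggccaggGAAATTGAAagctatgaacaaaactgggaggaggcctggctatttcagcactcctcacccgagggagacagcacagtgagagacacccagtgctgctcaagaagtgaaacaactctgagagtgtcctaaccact
Ifit3b, chr19:34607807-34607956, plus strand: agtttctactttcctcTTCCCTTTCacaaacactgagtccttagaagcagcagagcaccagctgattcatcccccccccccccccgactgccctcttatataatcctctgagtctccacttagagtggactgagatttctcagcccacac
Ifit1, chr19:34640739-34640888, plus strand: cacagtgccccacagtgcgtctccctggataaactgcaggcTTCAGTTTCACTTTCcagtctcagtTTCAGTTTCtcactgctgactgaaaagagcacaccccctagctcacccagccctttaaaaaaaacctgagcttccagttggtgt
Ifit3, chr19:34583379-34583528, plus strand: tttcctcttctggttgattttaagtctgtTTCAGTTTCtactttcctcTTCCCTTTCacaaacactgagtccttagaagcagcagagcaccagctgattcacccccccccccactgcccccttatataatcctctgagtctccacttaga
The capitals in Ifit1 cover 3 matches that overlap or lie close together, from 109 to 84 bases before the start, and Ifit3, at 300.2 and 1581 CPM (2.40, 2.34 to 2.45), has 2 matches at 121 and 102 bases. Ifi205 and Ifit3b have 1 match each, both 134 bases before the start. A match describes these letters and was not tested as a binding site.

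**Figure D1:**
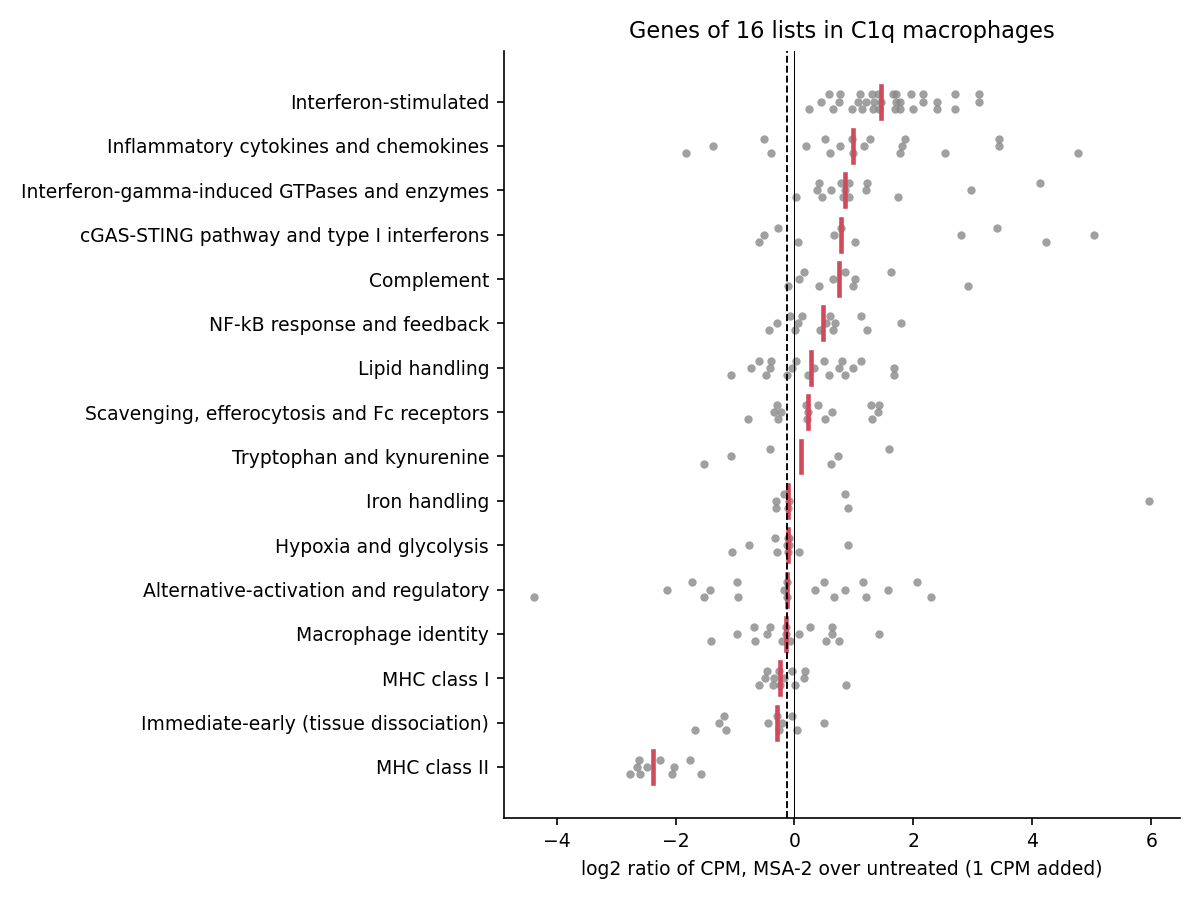
Log2 ratio of CPM (MSA-2 over untreated, 1 CPM added) of each measured gene of 16 lists in C1q macrophages; points are genes, red bars are list medians and the dashed line is the median of all 14377 genes (-0.13). All 33 interferon-stimulated genes lie above 0 and all 10 MHC class II genes lie below -1.

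The genes that make type I interferon were themselves higher in the members. Ifnb1 (ENSMUSG00000048806), which encodes interferon beta, had 2016 UMIs in untreated and 4716 in MSA-2 members, or 119.9 and 1283 CPM, a log2 ratio of 3.42 (3.34 to 3.50). Deep non-myeloid cells held 2.54 and 25.2 CPM, about as large a ratio at a far lower level. Ifna2 went from 11 to 195 UMIs (0.654 to 53.1 CPM; 6.34, 5.47 to 7.37), and Ifna4 from 1 to 69 UMIs (8.30, 5.78 to 13.63), both genes of interferon alpha. The rest of the pathway differed less. Ikbke, a kinase that acts on IRF3, measured 20.8 and 43.3 CPM (1.06, 0.78 to 1.33). The DNA sensor Cgas and the STING gene, which the files call Tmem173, were chosen after their values were seen. Cgas measured 17.5 and 28.3 CPM (0.69, 0.35 to 1.02) and Tmem173 51.1 and 35.6 CPM (-0.52, -0.80 to -0.25), so the agonist's own target was lower. Of 11 measured genes of the cGAS-STING and type I interferon list, 8 were higher, 5 at least 2-fold (against 6.10% of all genes), with a median of 0.77 (0.62 to 0.94).

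Genes known as targets of interferon gamma were higher as well. Ifnb1 was higher in the same members, and the part of each interferon in these genes was not tested. All 15 measured genes of a list of GTPases and enzymes were higher, 5 of them at least 2-fold (against 6.10% of all genes), with a median of 0.85 (0.57 to 1.19). Gbp5, a guanylate-binding protein that promotes inflammasome assembly, went from 32.6 to 588 CPM (4.17, 4.04 to 4.31). Acod1, the enzyme that makes itaconate, went from 264 to 882 CPM (1.74, 1.67 to 1.80). Nos2, the inducible nitric oxide synthase, went from 10.3 to 87.6 CPM (3.09, 2.82 to 3.37), but deep non-myeloid cells held more of it, 15.6 and 199 CPM. Tgtp2, an immunity-related GTPase, measured 7.26 and 18.0 CPM (1.31, 0.85 to 1.75).

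MHC class II genes were lower throughout. All 10 listed genes were at least 2-fold lower, against 4.08% of all genes, with a median of -2.38 (-2.49 to -2.28), and 5 of them are among the 10 genes of the lowest ratios of the 3472 compared. H2-Eb1 (ENSMUSG00000060586), the beta chain of I-E, went from 5384 to 793 CPM (-2.76, -2.82 to -2.71). The chains of I-A followed, with 3790.5 and 605 CPM for H2-Aa (-2.65, -2.71 to -2.59) and 4126 and 680.2 CPM for H2-Ab1 (-2.60, -2.66 to -2.54). Cd74, the invariant chain that escorts class II molecules, was the most abundant, with 8565 and 1532 CPM (-2.48, -2.52 to -2.44). H2-DMb1, part of the editor that loads peptides, measured 418 and 86.0 CPM (-2.28, -2.45 to -2.12). The genes that regulate the pathway were rare and also lower. Ciita, the coactivator that class II genes need, went from 453 to 13 UMIs (-2.93, -3.85 to -2.14). H2-Oa and H2-Ob, which restrain the peptide editor, went from 91 to 2 UMIs (-3.31, -6.38 to -1.42) and from 87 to 3 UMIs (-2.66, -4.97 to -1.07). With 10 CPM in place of 1 CPM added, which weighs the rare genes less, the median was -1.83. Some markers of other antigen-presenting cells were lower as well. The 6 genes of a dendritic list summed to 21.7 CPM (19.5 to 24.1) and 13.1 CPM (9.63 to 17.3), with Ccr7 the most abundant in both libraries and Clec9a and Cd209a at 0 in MSA-2. Within it Xcr1 went from 63 to 2 UMIs (-2.78, -5.86 to -0.87), and Cd79b, a B cell gene, from 21.9 to 4.90 CPM (-2.16, -2.93 to -1.48), while Ms4a1, another, had 21 and 9 UMIs (0.97, -0.34 to 2.16). The part of such cells in the result was not tested.

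MHC class I genes did not share that difference. Of 13 genes, 4 were higher and 9 lower, none by 2-fold, and the median of -0.25 (-0.34 to -0.16) lay near that of all genes. Psmb8, a subunit of the immunoproteasome, measured 578 and 381 CPM (-0.60, -0.68 to -0.52), and Tap2, part of the peptide transporter, 53.5 and 37.5 CPM (-0.51, -0.78 to -0.25). Nlrc5, the class I counterpart of Ciita, was higher, with 47.6 and 87.3 CPM (0.88, 0.69 to 1.06). Erap1, which trims peptides, measured 22.5 and 16.1 CPM (-0.49, -0.91 to -0.09).

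**Figure D2:**
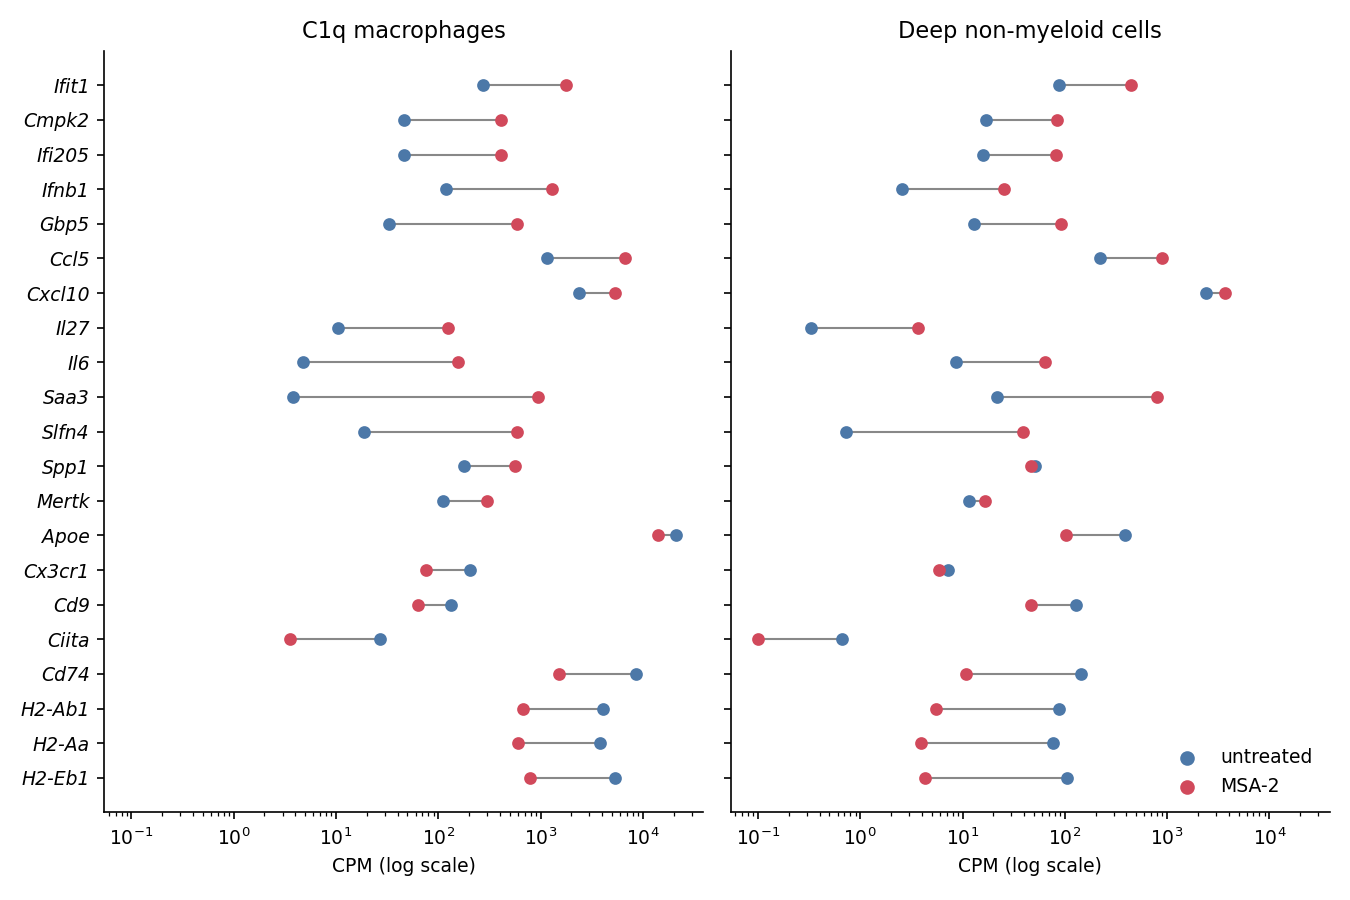
Levels of 21 genes in untreated (blue) and MSA-2 cells (red) in CPM on a log scale, in C1q macrophages and in deep non-myeloid cells; values under 0.1 CPM are drawn at 0.1. In the members Ifnb1 goes from 119.9 to 1283 CPM and H2-Eb1 from 5384 to 793 CPM, and deep non-myeloid cells hold far less of both.

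Inflammatory cytokines and chemokines were mostly higher. Of 19 measured genes, 15 were higher, 9 at least 2-fold, and 4 lower, 2 at least 2-fold, with a median of 0.98 (0.96 to 0.99). Among all genes, 6.10% were at least 2-fold higher and 4.08% at least 2-fold lower. Il6, a cytokine of the acute-phase response, went from 4.76 to 156 CPM (5.03, 4.69 to 5.39). Il27, a cytokine that acts on T cells, went from 10.5 to 124 CPM (3.56, 3.31 to 3.82). Both were rare next to Ccl5. Ccl5, which attracts T cells and monocytes, went from 1168 to 6742 CPM (2.53, 2.50 to 2.56), and Cxcl3, which attracts neutrophils, from 10.3 to 121 CPM (3.55, 3.30 to 3.82). Of the genes chosen after their values were seen, Cxcl10, a chemokine for T cells that interferon turns on, measured 2393 and 5407 CPM (1.18, 1.15 to 1.20). Deep non-myeloid cells held 2391 and 3699 CPM of Cxcl10, as much as the untreated members. Tnf and Il1b, the cytokines that start much of the acute response, moved apart, and both were also chosen after their values were seen. Tnf measured 302 and 1062 CPM (1.81, 1.75 to 1.87), and Il1b 2137 and 829 CPM (-1.37, -1.42 to -1.31).

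Among the 3472 compared genes, the 10 with the highest ratios are in part genes of neutrophils and of cells other than macrophages. Retnlg, a neutrophil resistin-like protein, had 1 UMI in untreated and 263 UMIs in MSA-2 members (10.23, 7.74 to 15.54), and Lcn2, a protein that binds iron carriers, went from 6 to 307 UMIs (7.87, 6.73 to 9.33). G0s2, an inhibitor of fat breakdown, went from 3.39 to 90.6 CPM (4.74, 4.33 to 5.17). Neutrophil-type cells, with at least 1% S100a8 and S100a9 and under 0.1% C1q UMIs, held 7986 CPM of Retnlg, 2661 CPM of Lcn2 and 9618 CPM of G0s2 in the MSA-2 library, where they numbered 2586 against 16 in the untreated library. Saa3, an acute-phase protein, went from 3.81 to 949 CPM (7.96, 7.61 to 8.34), Ptx3, a soluble pattern receptor, from 1.72 to 83.0 CPM (5.59, 5.04 to 6.19), and Rarres2, the chemoattractant chemerin, from 4.52 to 85.2 CPM (4.24, 3.87 to 4.62). In the MSA-2 library deep non-myeloid cells held more of Ptx3 (169.6 CPM) and Rarres2 (190.1 CPM) than the members and less of Saa3 (799 CPM). Slpi, a protease inhibitor, went from 14.4 to 685 CPM (5.57, 5.38 to 5.77), and Slfn4, a schlafen gene of myeloid cells, from 19.0 to 593 CPM (4.97, 4.80 to 5.14). These were also abundant in MSA-2 neutrophil-type cells, at 7331 and 3348 CPM. Ifna2 and Il6, given above, complete the 10.

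RNA of other cells was gauged through 4 genes of the deep non-myeloid cells, Rhox5, Tm4sf1, Cald1 and Gng11, a set chosen after the data were seen, and whether it was free RNA was not tested. Rhox5 measured 153 CPM and 169.8 CPM in the members of the libraries against 683 and 739 CPM in deep non-myeloid cells. The median ratio of members to the whole library over these genes was 0.260 in untreated and 0.238 in MSA-2, but Rhox5 differed among the members of 1 library by C1q range (below), so 1 ratio does not describe every cell. The profile of the whole library was subtracted at these ratios and the remainder scaled back to the full total, so a gene ends lower only where the members held less of it than the library. In the MSA-2 members Retnlg then measured 3.27 CPM (71.6 before) and G0s2 4.20 CPM (90.6 before), Lcn2 41.9 CPM (83.5), Rarres2 54.3 CPM (85.2) and Ptx3 57.0 CPM (83.0). The other 5 of the 10 genes, which the members held above the library's level, then measured 977 CPM for Saa3, 717 CPM for Slfn4, 773 CPM for Slpi, 180.3 CPM for Il6 and 67.2 CPM for Ifna2. Without S100a8 and S100a9, which belong to the rule, the neutrophil marker list was higher in all 6 of its 8 genes that were measured, and its sum went from 120.7 CPM (115.5 to 126.1) to 334 CPM (316 to 353), but with the library profile subtracted from 151.5 to 182 CPM, so most of the difference was gone after this step. Its most abundant gene was Il1r2 in untreated and G0s2 in MSA-2 members, and Ly6g had 0 and 5 UMIs. Of 6 genes of Ly6c2 monocytes, 5 were higher, with a sum of 521 CPM (509.9 to 532) and 1808 CPM (1765 to 1852). After subtraction the sum was 555 and 2054 CPM. Plac8 led the list, at 246 and 969 CPM, and deep non-myeloid cells also held more of it in MSA-2 (63.2 and 345.5 CPM). The chemokine receptor gene Ccr2 was lower, at 69.0 and 54.1 CPM (-0.35, -0.57 to -0.13), or 87.6 and 69.6 CPM after subtraction. The fibroblast list was higher in 5 of 6 genes, with a sum of 681 CPM (669 to 694) and 1254 CPM (1218 to 1290.5), or 168 and 576 CPM after subtraction, led by Col3a1. Lists of NK cells (12.5 and 4.90 CPM, led by Gzma, with Ncr1 at 0 in MSA-2), plasma cells (17.2 and 10.9 CPM, led by Igkc) and endothelial cells (30.3 and 23.4 CPM, led by Pecam1) were low in both libraries. The T cell list summed to 34.1 and 47.1 CPM, with 1 gene higher, Il7r at 17.8 and 44.3 CPM, 4 lower and the Cd3 genes at 0 by the rule, and a keratin and Epcam list to 0.595 and 0.816 CPM. The part of neutrophil, monocyte and fibroblast RNA in the members' ratios was not tested beyond this subtraction.

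Among the 3472 compared genes, the 10 with the lowest ratios hold the 5 class II genes above and 5 others. Ighm, the immunoglobulin heavy chain of IgM, went from 54.9 to 4.08 CPM (-3.75, -4.59 to -3.02), and Blnk, an adaptor of B cell receptor signaling that macrophages also express, from 144.9 to 31.0 CPM (-2.22, -2.51 to -1.95). Pdgfb, a growth factor for mesenchymal cells, went from 65.3 to 9.25 CPM (-2.82, -3.36 to -2.33). Tmem176a, a membrane channel protein of antigen-presenting cells, went from 280.3 to 63.7 CPM (-2.14, -2.33 to -1.95), and Rrad, a small GTPase, from 69.4 to 17.1 CPM (-2.02, -2.41 to -1.65). Deep non-myeloid cells held little of Ighm (1.57 and 2.92 CPM), Pdgfb (2.08 and 1.13 CPM) and Blnk (3.64 and 1.21 CPM), and more of Rrad (48.1 and 36.9 CPM).

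Lipid genes and macrophage identity genes moved in both directions. Of 20 lipid handling genes, 12 were higher, 3 at least 2-fold, and 8 lower, 1 at least 2-fold, with a median of 0.27 (0.22 to 0.32). The shares past 2-fold among all genes were 6.10% higher and 4.08% lower. Spp1, the secreted matrix protein osteopontin, went from 177 to 564 CPM (1.67, 1.59 to 1.75), Apoc2, which activates lipoprotein lipase, from 162 to 353 CPM (1.12, 1.03 to 1.22), and Gpnmb, a lysosomal membrane protein, from 23.5 to 47.6 CPM (1.02, 0.75 to 1.28). Cd9, a tetraspanin, measured 132 and 62.9 CPM (-1.07, -1.28 to -0.88). Apoe itself was lower over all members (-0.59, -0.60 to -0.58), and between -0.69 and -0.27 in 10 alternatives. From the lowest to the highest range of C1q given below it measured 3214, 5620.5, 11288 and 27569 CPM in untreated members. In MSA-2 members it measured 2096, 5185, 12315 and 22893 CPM, so it was not lower in each range. Of 17 identity genes, 7 were higher and 10 lower, with a median of -0.14 (-0.19 to -0.10), next to that of all genes. Mertk, a receptor for the uptake of dying cells, went from 110.5 to 299 CPM (1.43, 1.33 to 1.54), while Cx3cr1, the fractalkine receptor, measured 206 and 76.7 CPM (-1.42, -1.60 to -1.25). Adgre1, which encodes F4/80, measured 226 and 115 CPM (-0.97, -1.12 to -0.83), and Zeb2, a transcription factor that maintains macrophages, 1338 and 2250.1 CPM (0.75, 0.71 to 0.79).

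Complement and uptake receptors were higher in part. Besides C1q, 9 of 10 measured complement genes were higher, 3 at least 2-fold (against 6.10% of all genes), with a median of 0.75 (0.64 to 0.87). Serping1, the inhibitor of C1, went from 10.5 to 86.0 CPM (3.03, 2.76 to 3.30), but deep non-myeloid cells held 33.2 and 130.0 CPM of it. Cfb, factor B of the alternative pathway, measured 116 and 236 CPM (1.03, 0.91 to 1.14), and C3, the central component, 62.2 and 124 CPM (0.99, 0.83 to 1.15), while C2 was rare, at 2.08 and 8.43 CPM (2.02, 1.27 to 2.76). Of 15 genes for scavenging, uptake and Fc receptors, 10 were higher, 4 at least 2-fold (against 6.10% of all genes), with a median of 0.22 (0.10 to 0.34). Msr1, a scavenger receptor, went from 68.2 to 183 CPM (1.42, 1.29 to 1.56) and Siglec1, the sialic acid receptor sialoadhesin, from 16.4 to 42.2 CPM (1.36, 1.07 to 1.65). Sirpa, which receives the signal against uptake from CD47, measured 221 and 128 CPM (-0.79, -0.94 to -0.66).

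Genes of alternative activation went apart. Of 19 genes, 9 were higher and 10 lower, 5 at least 2-fold each way (against 6.10% and 4.08% of all genes), with a median of -0.13 (-0.31 to 0.05). Mgl2, a lectin, went from 426 UMIs to 1 UMI (-6.54, -11.85 to -4.05), Ccl17, a chemokine for T cells, from 139 to 4 UMIs (-2.93, -4.82 to -1.54), and Retnla, a secreted protein of the same program, from 97 to 5 UMIs (-2.08, -3.74 to -0.81). Chil3, a chitinase-like protein that Ly6c2 monocytes also make, was higher, with 16.8 and 86.8 CPM (2.37, 2.13 to 2.60). Among genes chosen after their values were seen, Cd274, which encodes PD-L1, measured 306 and 705 CPM (1.20, 1.13 to 1.27), and the cytokine Il10 30.1 and 91.1 CPM (1.60, 1.40 to 1.80). Genes of tryptophan breakdown were rare. Of 6 measured, 3 were higher and 3 lower, with a median of 0.10 (-1.92 to 2.30) whose sign turned in 8 of 13 alternatives, among them Kynu, kynureninase, at 6.07 and 20.1 CPM (1.73, 1.28 to 2.18), and Afmid, kynurenine formamidase, at 15.9 and 4.90 CPM (-1.70, -2.48 to -1.01).

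Stress and metabolic lists had medians of either sign. The NF-kB list holds inhibitors and targets of that factor. In it 11 of 14 genes were higher, 3 at least 2-fold (against 6.10% of all genes), with a median of 0.48 (0.39 to 0.56). Tnfaip3, which encodes the inhibitor A20, went from 259.99 to 901 CPM (1.79, 1.73 to 1.86), and Nfkbia, which encodes I kappa B alpha, from 1462 to 3186 CPM (1.12, 1.09 to 1.16). Immediate-early genes, which tissue dissociation also turns on, were lower in 9 of 11 cases, 4 at least 2-fold (against 4.08% of all genes), with a median of -0.29 (-0.33 to -0.25). That median was -0.47, -0.03, -0.11 and -0.41 from the lowest to the highest range of C1q given below. In members with at least 5000 UMIs it was -0.51. Fosb, a part of the AP-1 factor, measured 914 and 286 CPM (-1.68, -1.77 to -1.59), and Junb, another, 1935 and 869 CPM (-1.16, -1.21 to -1.10). Of 11 hypoxia and glycolysis genes, 2 were higher and 9 lower, with a median of -0.11 (-0.20 to -0.02), which was lower within each range of C1q given below. Vegfa, the vascular growth factor, measured 230.3 and 110.7 CPM (-1.06, -1.21 to -0.91) and Hk2, a hexokinase, 114.5 and 214 CPM (0.90, 0.78 to 1.02). Of 8 iron genes, 3 were higher and 5 lower, with a median of -0.10 (-0.37 to 0.15), and Hmox1, which breaks down heme, measured 151 and 275 CPM (0.86, 0.75 to 0.97).

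The differences in level were also differences in how many cells held a UMI. Each cell was thinned at random to 3000 UMIs, which left 2415 untreated and 556 MSA-2 members and left out 646 and 315 shallower ones. Ifnb1 was found in 17.3% (15.8% to 18.9%) of untreated and 77.0% (73.3% to 80.4%) of MSA-2 members, against 0.863% and 6.72% of deep non-myeloid cells thinned alike, whose median depths before thinning were 21987 and 21367 UMIs. Unthinned, the members' shares were 20.2% and 75.7%, so most MSA-2 members held Ifnb1 RNA by either measure. H2-Eb1 was found in 93.5% (92.4% to 94.4%) and 36.3% (32.3% to 40.5%) of members (unthinned 91.0% and 32.5%), against 25.7% and 1.15% of deep non-myeloid cells. Ccl5 was found in 64.8% (62.8% to 66.7%) and 97.8% (96.3% to 98.9%) of members (unthinned 69.6% and 94.1%), against 26.5% and 63.1%. Slfn4 was found in 4.51% and 54.1% of members (unthinned 6.57% and 64.9%), against 0.169% and 9.71%, and Mertk in 22.2% and 38.7% (unthinned 30.3% and 45.8%), against 3.84% and 5.29%. Thinned alike, these shares lie above those of the reference cells in both libraries. Unthinned, the deeper reference cells held Ccl5 in 74.7% and 97.9% of cases, more than the members, and H2-Eb1 in 87.3% and 8.62%. Il6 and Saa3, thinned, lie above them in the MSA-2 library only. Il6 was found in 1.12% and 25.2% of members (unthinned 2.03% and 27.4%) against 2.93% and 11.9%, and Saa3 in 0.745% and 48.7% (unthinned 1.50% and 56.3%) against 1.49% and 35.5%, and their untreated shares are read as background. For Cxcl10 the untreated share of 83.9% (unthinned 88.3%) lay under the 87.6% of deep non-myeloid cells. Retnlg was found in 0 of 2415 untreated members and in 14.9% (12.1% to 18.2%) of MSA-2 members (unthinned 0.0327% and 20.3%), close to the 11.5% (10.8% to 12.3%) of deep non-myeloid cells.

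**Figure D3:**
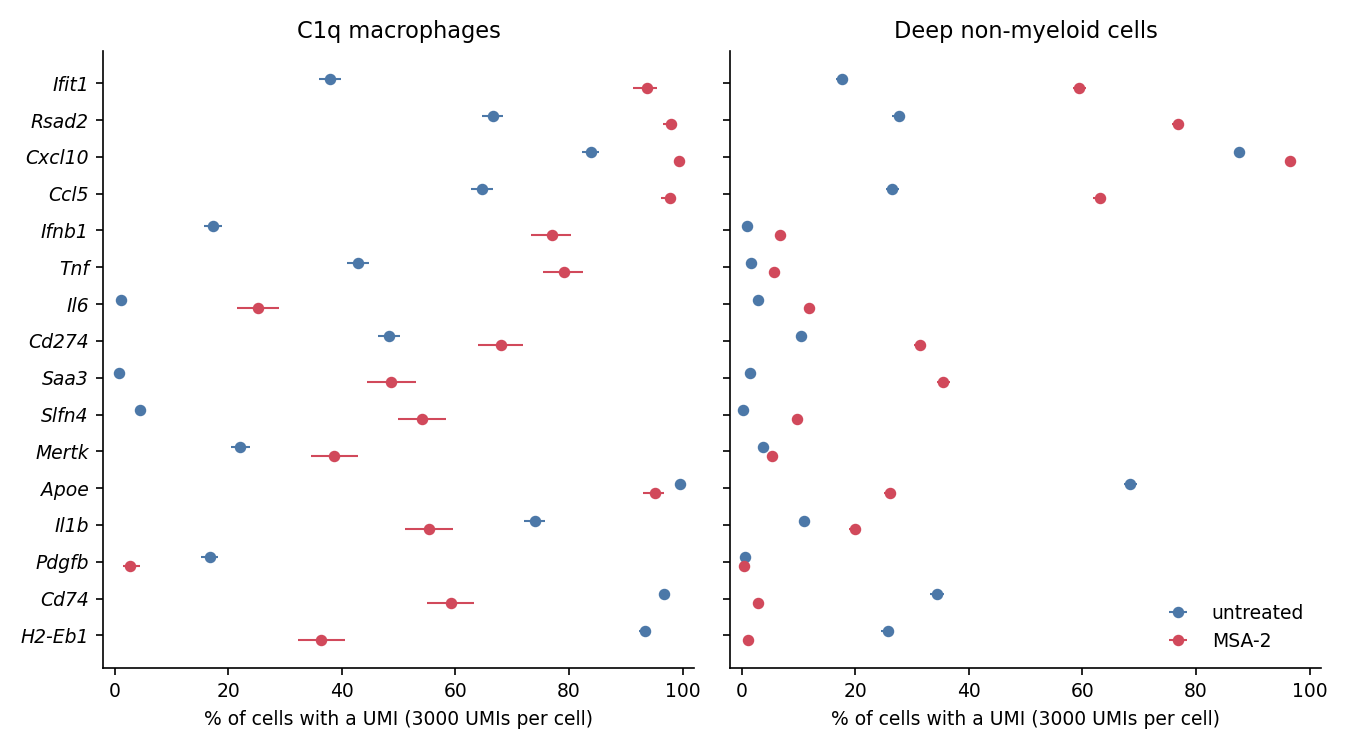
Share of cells with at least 1 UMI of 16 genes after thinning to 3000 UMIs, in untreated (blue) and MSA-2 cells (red) of both kinds; bars are 95% Clopper-Pearson intervals. Ifnb1 goes from 17.3% to 77.0% of C1q macrophages and H2-Eb1 from 93.5% to 36.3%.

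Single members differed widely in class II RNA and, in the untreated library, in interferon-stimulated RNA. H2-Aa, H2-Ab1, H2-Eb1 and Cd74 together took a median of 1.83% of a cell's UMIs in untreated members, with 0.136% at the 10th and 4.51% at the 90th percentile. In MSA-2 members the median was 0.0387%, the 90th percentile 1.02%, and 333 cells (38.2%) had none, against 50 (1.63%) in untreated. Cells were not thinned here and MSA-2 members were shallower (median 3846 against 5103 UMIs), so the number with none also depends on depth. Ifit1, Ifit2, Ifit3, Isg15 and Rsad2 together took 0.167% (0.0113% to 0.802% between the same percentiles) in untreated and 1.22% (0.445% to 2.16%) in MSA-2 members. The 90th percentile of untreated members thus lay above the 10th of MSA-2 members, and the ranges overlap. Apoe took 1.71% (0.216% to 4.40%) and 0.775% (0.0257% to 3.32%). Cells were counted as class II-high at 0.5% or more of the 4 genes and as interferon-high at 0.1% or more of the 5 genes. Class II-high cells numbered 2307 (75.4%, 73.8% to 76.9%) and 143 (16.4%, 14.0% to 19.0%), and interferon-high cells 1903 (62.2%, 60.4% to 63.9%) and 860 (98.7%, 97.8% to 99.4%). Of deep non-myeloid cells, 0.101% and 0.0144% were class II-high, while 19.2% and 78.2% were interferon-high. Close to the class II limit, with a share that differed from it by at most 10%, lay 98 untreated and 19 MSA-2 members, and as close to the interferon limit 141 and 3.

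In the untreated library class II-high members were more often interferon-high than the rest. Both were high in 1523 members (49.8%), class II alone in 784 and interferon-stimulated RNA alone in 380, and 66.0% (64.0% to 68.0%) of the class II-high members were interferon-high against 50.4% (46.8% to 54.0%) of the rest. In the MSA-2 library 142 of the 143 class II-high members were interferon-high, and so were 718 of the 728 others (98.6%, 97.5% to 99.3%), so nearly all cells passed the interferon limit and the measure separates none there. Members that were neither numbered 374 (12.2%) and 10 (1.15%). These are counts of cells from 1 library each and share its depth. In untreated members both shares and the median depth were larger in each higher range of C1q given below. The counts were not made within those ranges, and the part of C1q share and depth in them was not tested.

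The position of the members on the C1q scale differed between the libraries, so the same values were taken in 4 ranges of C1q share. The ranges are divided by genes of the rule, so an order along them describes the choice of cells and supports no result. At 1% or more lay 2005 untreated members (65.5%) and 316 MSA-2 members (36.3%), and between 0.1% and 0.2% lay 280 (9.15%) and 167 (19.2%). Class II-high cells made up 28.9% of untreated members in the lowest range, then 51.8%, 76.5% and 85.8%, and 2.40%, 6.93%, 21.0% and 27.2% of MSA-2 members. In each range the share was lower in MSA-2. Interferon-high cells made up 45.4%, 55.7%, 58.0% and 66.5% of untreated members and between 98.4% and 99.0% of MSA-2 members. Ifnb1 was higher in MSA-2 in each range, with 19.97, 48.2, 77.8 and 150.6 CPM in untreated and 1641.5, 1478, 1294 and 1067 CPM in MSA-2 members from the lowest to the highest C1q range. Median depth was larger with more C1q, from 2000.5 to 5588 UMIs in untreated and from 2150 to 4833.5 UMIs in MSA-2 members, and its part was not tested. Ly6c2, a monocyte surface protein, was lowest at 1% or more C1q, with 306, 167, 205 and 56.6 CPM in the ranges of untreated and 485, 492, 380.4 and 112 CPM in those of MSA-2 members. So were Plac8, with 1044, 387, 414 and 116 CPM and 1629, 1832, 1076 and 305 CPM, and Rhox5, with 332, 390.3, 212 and 80.3 CPM and 261, 247, 162 and 107.9 CPM. Whether this RNA was the members' own was not tested.

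**Figure D4:**
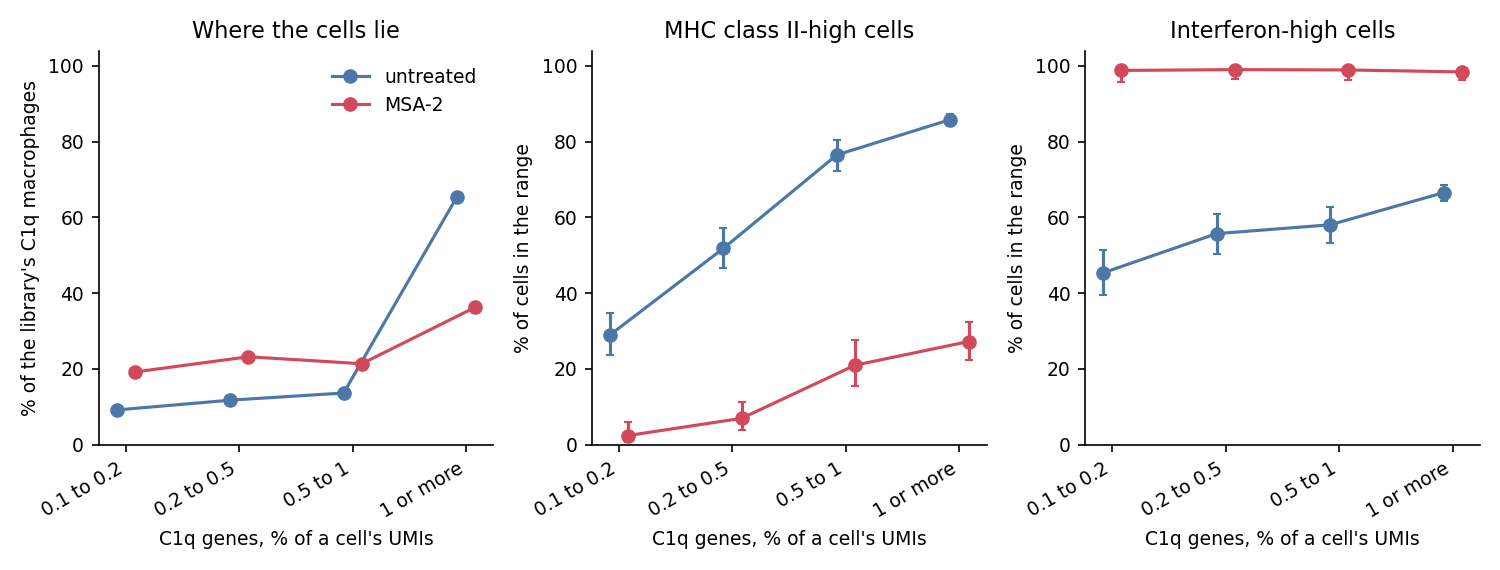
Share of members in 4 ranges of C1q UMIs (left) and share of class II-high and interferon-high cells in each range with 95% Clopper-Pearson intervals, for the untreated (blue) and MSA-2 library (red). At 1% or more C1q, 85.8% of untreated and 27.2% of MSA-2 members were class II-high.

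The list medians kept their direction in each range for the interferon-stimulated and class II genes. From the lowest to the highest C1q range the interferon-stimulated median was 1.94, 2.30, 1.70 and 1.25, and the class II median -2.94, -2.65, -2.29 and -2.16, over 9 genes in the lower pair of ranges. The inflammatory median went from 2.50 through 1.94 and 1.31 to 0.67. The median of the interferon gamma list was 0.44, 0.74, 0.79 and 0.998, and 3 of its 14 genes were lower in the lowest range. Several smaller medians differed among the ranges, in the same order, while that of all genes was -0.19, -0.30, -0.21 and -0.14. As above, such differences describe the choice of cells and support no result. The lipid median was 0.01, 0.74, 0.22 and 0.12, the complement median 0.51, 1.66, 1.30 and 0.33, and the NF-kB median 0.66, 0.98, 0.38 and 0.23. The cGAS-STING median was 1.10, 1.03, 1.002 and 0.39. Some medians over all members lay outside those of every range, and the ranges were filled differently in the libraries. The identity median was 0.48, 0.80, -0.0044 and 0.02 against -0.14 over all members, and the hypoxia median -0.29, -0.40, -0.29 and -0.33 against -0.11. For the list of scavenging, uptake and Fc receptors it was 0.50, 0.81, 0.41 and 0.32 against 0.22.

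Ratios of single genes in the highest range also differed from those over all members, which again describes the choice of cells. At 1% or more C1q the log2 ratio of Slpi was 3.74 against 5.57 over all members, that of Slfn4 4.12 against 4.97 and that of Ifnb1 2.82 against 3.42. Tnf had 1.14 against 1.81 and Il1b -2.13 against -1.37, so each kept its sign there.

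In other kinds of cells the interferon-stimulated, class II and inflammatory medians had the signs they had in the members. In Folr2 Lyve1 macrophages the interferon-stimulated median was 2.16, the class II median -1.80 (6 genes) and the inflammatory median 0.72. Cycling C1q cells had 1.14, -2.63 and 0.55, and deep non-myeloid cells 1.52, -1.58 and 1.41. Whether these medians differ between kinds of cells was not tested. Class II RNA was low in deep non-myeloid cells, with H2-Eb1 at 105 and 4.30 CPM. The macrophage genes Apoe (386 and 101.9 CPM) and Ms4a7 (10.7 and 3.70 CPM) were lower there in MSA-2 as well. Whether the class II RNA was these cells' own was not tested.

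**Figure D5:**
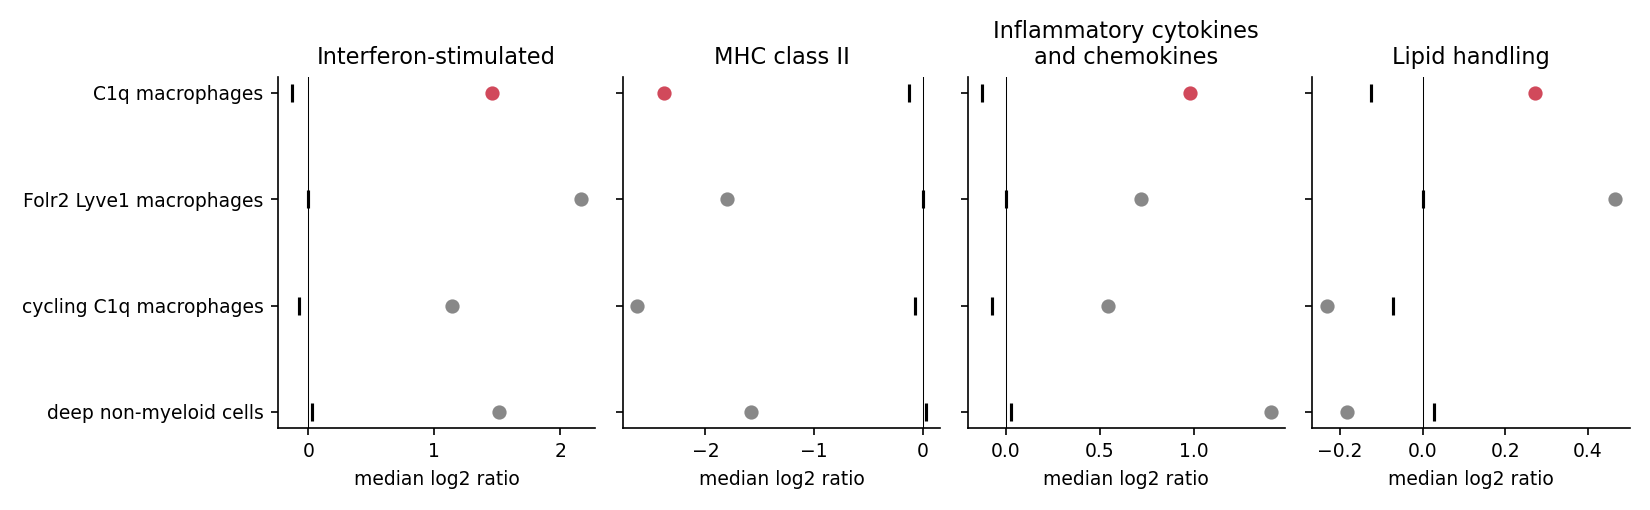
Median log2 ratio of 4 gene lists in C1q macrophages (red) and in other cells (grey); black ticks are the median of all genes measured in the same cells. The interferon-stimulated median lies between 1.14 and 2.16 and the class II median between -2.63 and -1.58 in all 4 kinds of cells. Deep non-myeloid cells held little class II RNA.

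Single genes marked where the members departed from Folr2 Lyve1 macrophages. Over 3411 genes with 50 UMIs or more in each kind of cell, the median difference of their log2 ratios was -0.07. F13a1, a coagulation factor of monocytes and resident macrophages, went from 25.4 to 199 CPM in members and from 1111 to 659 CPM in Folr2 Lyve1 macrophages, a difference of 3.72 (3.46 to 3.98). Cbr2, a reductase, went from 4.70 to 28.8 CPM in members and measured 385 and 341 CPM in the others. The MSA-2 members thus held more of both genes than the untreated members and less than their neighbours. Folr2, a gene of the rule, measured 3.69 and 19.0 CPM in members, of which 72 untreated and 75 MSA-2 cells had 1 UMI of Folr2 or Lyve1. Cd69, an early activation marker, measured 66.7 and 234 CPM in members and 6.75 and 139 CPM in Folr2 Lyve1 macrophages, a difference of -2.56 (-4.58 to -0.53). The Folr2 Lyve1 cells were few, 46 and 110, and the limits of the rule set who is a neighbour, so these differences describe the cells as divided here.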

How the data were processed

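Single-cell RNA was measured in 2 libraries, 1 per condition. The authors deposited unnormalized UMI count matrices made with Cell Ranger (7.0.0 in the labels) for barcodes of their own quality filter. Members and gene lists were chosen with earlier results of these data known. UMIs were summed over members by gene symbol and scaled to CPM. Shares have Clopper-Pearson intervals, ratios exact conditional binomial ones and sums Poisson ones, while differences between kinds of cells have normal approximations, and a count of 0 was read against a floor of 3 counts. With 1 library per condition no test was made. Python 3.11.15, numpy 2.4.6, scipy 1.17.1, pandas 2.3.3, scanpy 1.11.5 (Scrublet), matplotlib 3.10.9, R 4.3.3 and edgeR 4.0.16 (TMM) were used, and the computations were tested on simulated data. Named by rule were the genes of the rule and marker lists, the 10 highest and 10 lowest ratios, in each of 16 lists the 4 largest among genes with 50 UMIs, and for each neighbouring class the 5 highest and 5 lowest differences. Not every such gene is printed, and 1 limit of the rule, its alternatives, the class it sets apart and some genes are not reported here. Doublets were kept, as the rule does not remove them. Alternatives were tried for cell filter, doublets, limits of the rule, depth, denominator, scaling, low-count filter, added CPM, thinning and subtraction of the library profile.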

Additional observations from a re-analysis of the deposited data

Results flagged for a closer look

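For 3 of the genes with the largest differences between C1q macrophages and Folr2 Lyve1 macrophages, the ratio of MSA-2 over untreated had opposite signs in the 2 kinds of cells, with neither counting interval reaching 0. With 1 library per condition these differences were not tested between conditions. F13a1 had 2.97 in members and -0.75 in Folr2 Lyve1 macrophages, a difference of 3.72. Ednrb, the endothelin receptor B, had 1.86 in members and -1.45 in Folr2 Lyve1 macrophages, a difference of 3.31 (2.50 to 4.12), at 2.32 and 8.43 CPM in members and 277 and 101.4 CPM in the others. Tnip3, an inhibitor of NF-kB signaling, had -0.44 in members and 2.81 in Folr2 Lyve1 macrophages, a difference of -3.25 (-4.95 to -1.55), from 43.1 and 31.8 CPM in members and 10.1 and 71.0 CPM in the others. In untreated Folr2 Lyve1 macrophages Tnip3 rests on few UMIs from 46 cells, and the counting interval of its ratio was 1.19 to 5.13. With the library profile subtracted, the members had 3.04 for F13a1, 2.16 for Ednrb and -0.49 for Tnip3, while Folr2 Lyve1 macrophages were not treated so, and several of these levels are low.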

How the results depend on the processing

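Of 94 alternative values reported for the main results, 57 stayed inside the counting interval of the main value, or for numbers of genes within 1.5-fold, 37 moved and none changed sign. For other lists and named genes, 240 of 335 stayed inside the interval and 95 did not, and 12 had the opposite sign. The macrophage identity median was 0.023 at 1% or more C1q and -0.14 over all members. The other sign changes were in lists whose main interval includes 0. The alternative activation median (-0.13) was 0.13 at 1% or more C1q, the iron median (-0.10) was 0.36 with the library profile subtracted and 0.07 with at least 5000 UMIs, and the tryptophan median (0.10) was negative in 8 of 13 alternatives, down to -1.07 with at least 50 UMIs per gene. The log2 ratio of the members' share was -1.63 with 1000 or more genes and 10% or fewer mitochondrial UMIs, -1.97 with at least 0.2% C1q, -0.28 among cells with at least 0.1% C1q, -1.51 without neutrophil-type cells and -2.05 per deep non-myeloid cell. The planned denominator of keratin-expressing tumor cells could not give a value, since its gate found 0 untreated cells and 1 MSA-2 cell. Per deep non-myeloid cell, 1% or more C1q, at least 0.2% myeloid RNA and subtraction of the library profile were alternatives added after the data were seen. With at least 10 UMIs and no CPM minimum, 1293 genes were at least 2-fold higher and 1374 lower, and the higher ones made up 48.5% of both against 75.2% in the main count, while with 1 CPM added such genes gave 877 and 587. TMM factors of 1.02 and 0.978 moved the median of the compared genes to -0.04. The interferon-stimulated median was 1.33 in members with at least 5000 UMIs, 1.25 at 1% or more C1q and 1.60 with the library profile subtracted. The class II median was -2.27 with at least 0.2% C1q, -2.49 with at least 5000 UMIs, -2.16 at 1% or more C1q, -2.53 with equal weight per cell and -1.83 with 10 CPM added. The inflammatory median was 1.01 without doublets, 0.96 with at least 0.2% C1q, 0.85 with at least 5000 UMIs, 0.67 at 1% or more C1q, 1.01 with at least 0.2% myeloid RNA, 1.04 with TMM factors, 0.99 with equal weight per cell and 1.02 with the library profile subtracted. The lipid median was 0.34 with at least 0.2% C1q, 0.18 with at least 5000 UMIs, 0.12 at 1% or more C1q and 0.34 with TMM factors. Thinned to 1500 UMIs, Ifnb1 was found in 11.1% of untreated and 63.8% of MSA-2 members, H2-Eb1 in 87.3% and 26.7%, and Ccl5 in 50.5% and 91.5%. Unthinned, Ifnb1 was found in 20.2% and H2-Eb1 in 91.0% of untreated members, and Ccl5 in 69.6% and 94.1%. Where no value shows the cause, the cause was not tested. No paired analysis was possible because each condition has 1 library.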
